A study of Mus musculus with 18 samples.

Results

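The genes described here encode the mitochondrial solute carriers of the SLC25 family, measured in total RNA of mouse brown adipocytes. They were chosen by name: every gene symbol made of Slc25a and a number, with Ucp2 and Ucp3 added. Of the 45706 genes in the table, 49 matched, and the 42 that had 10 or more counts in at least 6 of the 18 libraries were kept. Ucp1, the uncoupling protein that defines brown fat, is related to these carriers but bears a name outside the rule.

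The cells were BMC, an immortalised line of murine brown preadipocytes, differentiated with insulin, triiodothyronine, dexamethasone, indomethacin and isobutylmethylxanthine and used on day 7. All groups shared this line and this protocol. By their labels, 6 libraries are 0 h (not induced), 6 are 4 h and 6 are 24 h after 1 µM norepinephrine, the transmitter that starts fat breakdown in these cells. Each group carries replicate numbers 1 to 6, and the labels give 1 batch for all. The design asks which transcripts change after lipolysis is induced.

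SLC25 proteins sit in the inner mitochondrial membrane, with a few in other membranes, and move metabolites, nucleotides, cofactors, metals and protons between the matrix and the cytosol. Most work as exchangers that alternate between opening to either side. In brown fat they feed the matrix with phosphate, acylcarnitines and amino acids, return ATP to the cytosol, and include uncoupling proteins.

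Libraries held between 7010742 and 26501223 expected counts. Number sets, not labelled times, separated them: libraries with the same number, or with numbers 3 apart, varied alike. The numbers 3 and 6 (set 3+6), 2 and 5 (set 2+5) and 1 and 4 (set 1+4) therefore serve as 3 groups of 6, each with 2 libraries of every labelled time. The labels do not say what these numbers stand for, and whether the time labels belong to these libraries was not tested. One library stood apart: in 24 h replicate 5, of set 2+5, 2 genes that collect ribosomal RNA reads, Yam1 and Gm26917, took 41.5% of counts, against 6.78% to 10.6% in the other 17. The summed level of 12 brown adipocyte markers had a median of 7206 CPM (counts relative to the scaled library total) in set 3+6, 8741 in set 2+5 and 8707 in set 1+4. That of 9 preadipocyte and fibroblast markers was 1606 CPM in set 3+6 (1570 to 1967), 1111 in set 2+5 (1055 to 1520) and 899 in set 1+4 (820.5 to 957.6). Of the 7 such markers tested, all 7 were higher in set 3+6 than in set 1+4. The brown adipocyte markers were mixed, so their sum does not stand for each. Of the 12, 3 were higher and 6 lower in set 3+6 and 5 and 6 in set 2+5, each against set 1+4. In set 3+6 against set 2+5, 6 were higher and 3 lower, although the sum was lower. Of all genes, 28.5% to 30.2% went each way in these comparisons. Smooth muscle markers summed to 63.2 to 85.8 CPM in set 3+6, 32.5 to 56.7 in set 2+5 and 29.3 to 32.3 in set 1+4. Of the 4 smooth muscle markers tested, 2 were higher and 1 lower in set 3+6 than in set 1+4. Skeletal muscle markers summed to 0.49 to 1.28 CPM in set 3+6, 2.13 to 2.99 in set 2+5 and 3.42 to 4.35 in set 1+4, low but without overlap, and only Acta1 of them passed the filter for testing. Macrophage markers stayed under 5.55 CPM in sum and endothelial under 1.81, with Adgre1, Cdh5 and Myod1 at 0. The part these markers play in the differences between sets was not tested. Fewer cells of a type and less RNA per cell cannot be told apart in such bulk libraries.

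The carriers covered a wide range of levels. Per kilobase of annotated exon, Slc25a5 averaged 174 CPM over the 18 libraries and Slc25a47 0.19. Slc25a5 and Slc25a4 encode adenine nucleotide translocases, which exchange matrix ATP for cytosolic ADP, and Slc25a3 the phosphate carrier. Slc25a4 reached 81.3 CPM per kilobase and Slc25a3 68.1. Together these 3 genes made up 46.6% of the summed level per kilobase of the 42. Without division by exon length, Slc25a3 averaged 378 CPM, Slc25a5 287 and Slc25a4 191. Next came Slc25a39, a glutathione importer, at 65.9 CPM per kilobase and Slc25a11, the oxoglutarate-malate carrier, at 36.5. Slc25a51, an NAD importer, followed at 34.5 CPM per kilobase, Slc25a44, a branched-chain amino acid carrier, at 33.7, and Slc25a1, the citrate carrier, at 28.8.

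The other 7 of the 49 stayed low in these cells. Slc25a18, a glutamate carrier, had 0 to 14 counts and reached 10 in 3 libraries. Ucp3, the uncoupling protein best known from muscle, had 0 to 11 counts and reached 10 in 2 libraries, both in set 1+4. Slc25a43 had 2 to 8 counts, and Slc25a31 and Slc25a41, adenine nucleotide carriers, had 0 to 2. Slc25a21 and Slc25a54 had 0 counts in all libraries. Just inside the limit were Slc25a47, with 3 to 19 counts and 13 libraries that reached 10, and Slc25a34, with 2 to 55 counts and 14 such libraries. Slc25a34 reached 10 counts in 3 of the 6 libraries of set 3+6, 5 of set 2+5 and all 6 of set 1+4, so its place here leans on the sets in which it was high.

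No carrier passed the test between the labelled times. With edgeR's quasi-likelihood test and adjustment over the 14788 genes tested, 0 of 42 passed an adjusted p of 0.05 at 4 h against 0 h, at 24 h against 0 h and at 24 h against 4 h. The background was equally empty, with 0% of all genes called in each comparison. At an unadjusted p under 0.05, 173 genes (1.17%) passed at 4 h against 0 h, 158 (1.07%) at 24 h against 0 h and 137 (0.926%) at 24 h against 4 h, and none was a carrier. DESeq2 also called 0 genes in each. Both models held labelled time alone, so the spread between number sets stayed in their error and made these tests strict. With replicate number as a block, edgeR passed 9.88%, 7.81% and 5.12% of all genes at an unadjusted p under 0.05.

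Single genes show how far the labelled times covered one another. The citrate carrier Slc25a1 ranged from 42.3 to 80.6 CPM at 0 h, from 42.4 to 85.1 at 4 h and from 37.5 to 81.0 at 24 h, with medians of 62.7, 63.7 and 69.1. Ucp2, a carrier linked to the export of C4 metabolites and named for uncoupling, ranged from 83.3 to 117 CPM at 0 h, 89.6 to 123 at 4 h and 80.4 to 109 at 24 h. In both genes the ranges of the 3 times overlap.

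The widest log2 differences came from scarce members. At 4 h against 0 h they ran from -0.19 ± 0.22 (SE) in Slc25a27 to 0.34 ± 0.23 in Slc25a29. At 24 h against 0 h they ran from -0.25 ± 0.35 in Slc25a48 to 0.29 ± 0.25 in Slc25a47, and at 24 h against 4 h from -0.37 ± 0.36 to 0.33 ± 0.26 in the same 2 genes. Among abundant carriers the differences were small. At 24 h against 0 h Slc25a3 gave a log2 difference of -0.02 ± 0.09, Slc25a4 0.03 ± 0.09, Slc25a5 -0.02 ± 0.08 and Slc25a44 -0.03 ± 0.10. The model with replicate number as a block called 0 carriers too, and 0%, 0.00676% and 0% of all genes in the 3 comparisons, with 0.37 the lowest edgeR adjusted p of a carrier. Its SEs for these abundant carriers were smaller. At 24 h against 0 h it gave -0.02 ± 0.03 for Slc25a3, 0.03 ± 0.04 for Slc25a4, -0.02 ± 0.04 for Slc25a5 and -0.02 ± 0.03 for Slc25a44. At an unadjusted p under 0.05 it held 2 carriers at 4 h against 0 h (Slc25a40 and Slc25a36, 9.88% of all genes), 1 at 24 h against 0 h (Slc25a42, 7.81%) and 1 at 24 h against 4 h (Slc25a48, 5.12%). The largest of these, Slc25a48, had a log2 difference of -0.39 ± 0.14 and an edgeR adjusted p of 0.92.

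Number set accounted for a median of 73.5% of a carrier's variance in log2 CPM (7.34% to 96.0%), and labelled time for 2.51% (0.14% to 21.9%). Over all 14788 genes the medians were 62.7% and 3.78%. The share by set passed 50% in 29 of the 42 carriers and was highest in Slc25a1 at 96.0%, then Slc25a51 at 95.5% and Slc25a44 at 95.2%. It was lowest in Slc25a14 at 7.34%, a scarce gene.

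**Figure D1:**
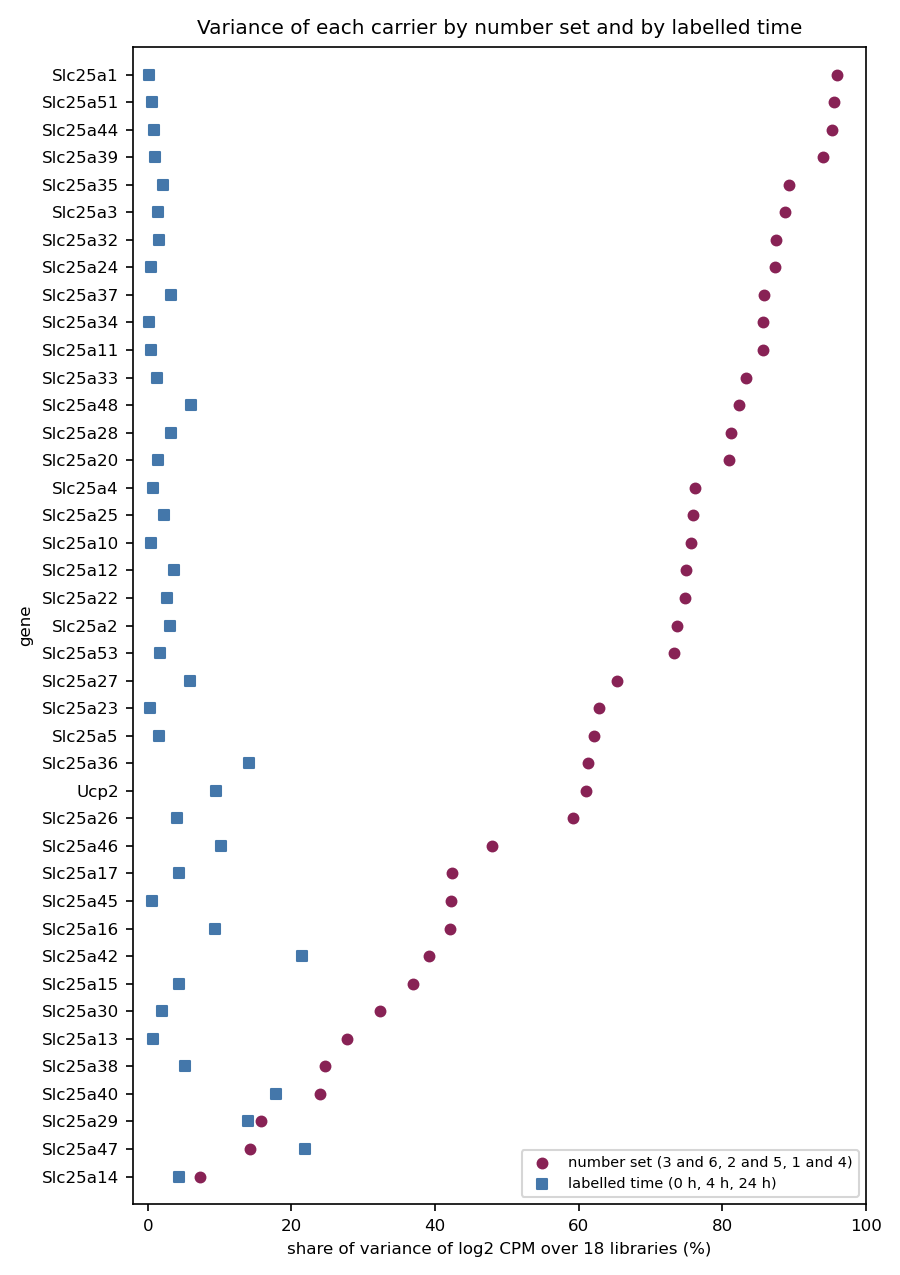
Share of the variance of log2 CPM (x axis, percent) held by number set (circles) and by labelled time (squares) for 41 of the 42 carriers, over 18 libraries. Set exceeds time for every gene drawn but Slc25a47, and Slc25a1 has the highest share by set at 96.0%.

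Between the sets, 35 of the 42 carriers (83.3%) were called in at least 1 of the 3 comparisons, against 81.2% of all genes, and 14 (33.3%) in all 3, against 24.9%. Since the sets were noticed in these same data, the edgeR p-values given for them describe how far the sets lie apart. The model held set and time but not replicate number, so each SE and p takes the 6 libraries of a set as independent, although they carry 2 numbers at 3 times and same-numbered libraries varied together. Replicate number, which includes set, accounted for a median of 79.5% of a carrier's variance. In set 2+5 against set 1+4, 9 carriers were higher and 18 lower, where 59.5% of all genes were called (29.6% higher and 29.9% lower). In set 3+6 against set 1+4, 3 were higher and 25 lower, where 59.7% were called (30.2% higher and 29.5% lower). In set 3+6 against set 2+5, 8 were higher and 20 lower, where 57.1% were called (28.6% higher and 28.5% lower). The number of carriers called is thus near the background in each comparison, and the median log2 difference of the 42 was -0.11, -0.20 and -0.12 in this order, against -0.002, 0.004 and 0.001 for all genes.

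These directions are relative to the middle of all genes. When libraries were scaled by their totals alone, the median gene moved by log2 -0.09 in set 2+5 against set 1+4, 0.17 in set 3+6 against set 1+4 and 0.25 in set 3+6 against set 2+5. Carriers called higher and lower then numbered 4 and 10, 2 and 6, and 9 and 3, where all genes gave 1348 and 2440, 3404 and 1132, and 4406 and 724. Leaving out 24 h replicate 5 as well, carriers called higher and lower numbered 14 and 18, 8 and 15, and 11 and 13. All genes then gave 4803 and 3623, 6970 and 2453, and 5871 and 2592, with 56.4%, 63.1% and 56.7% called. Of the called carriers 0, 5 and 11 changed sign with library totals, and all but 1 are named beside their values. Of the 11 in set 3+6 against set 2+5, only Slc25a44 still changed sign once 24 h replicate 5 was left out too (log2 0.0175). The other sign changes in that comparison thus rest on this library. In set 3+6 against set 1+4, Slc25a5, Slc25a16, Slc25a36 and Slc25a46 still changed sign without it.

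The summed level of the 42 was 2100.5 ± 81.5 CPM in set 3+6, 2399 ± 69.6 in set 2+5 and 2501 ± 41.3 in set 1+4 (SD, n = 6 each). With TMM scaling, all 6 libraries of set 3+6, at 1998 to 2204 CPM, lay below those of the other sets, which began at 2280. The TMM factors, by which levels are divided, were 1.10 to 1.15 in set 3+6 and 0.43 to 1.05 in the other sets. Neither these sums nor the overlaps that follow were computed with library totals. Without overlap between the 6 libraries of each set, 6 carriers were higher and 14 lower in set 2+5 than in set 1+4 (35.3% of all genes did not overlap), 2 and 17 in set 3+6 than in set 1+4 (38.6%), and 3 and 9 in set 3+6 than in set 2+5 (29.8%). Every called carrier had the same sign when numbers 1 to 3 and numbers 4 to 6 were fitted apart, and 21 of 27, 19 of 28 and 14 of 28 were called in both. The calls and the sets came from these same libraries, so shared signs were likely beforehand and are not separate support. Each fit held 1 number per set, and the shares over all genes were not computed for these fits. Some called differences came mostly from one of these fits. In set 3+6 against set 2+5, numbers 1 to 3 and numbers 4 to 6 gave log2 0.32 and 0.05 for Slc25a23, 0.29 and 0.08 for Slc25a17, -0.06 and -0.22 for Slc25a4, and -0.10 and -0.25 for Ucp2. In set 3+6 against set 1+4 they gave -0.04 and -0.28 for Slc25a16 and -0.04 and -0.23 for Slc25a5, and in set 2+5 against set 1+4 they gave -0.26 and -0.10 for Slc25a12 and 0.31 and 0.14 for Slc25a53. In each of these 8 the smaller value was not called.

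**Figure D2:**
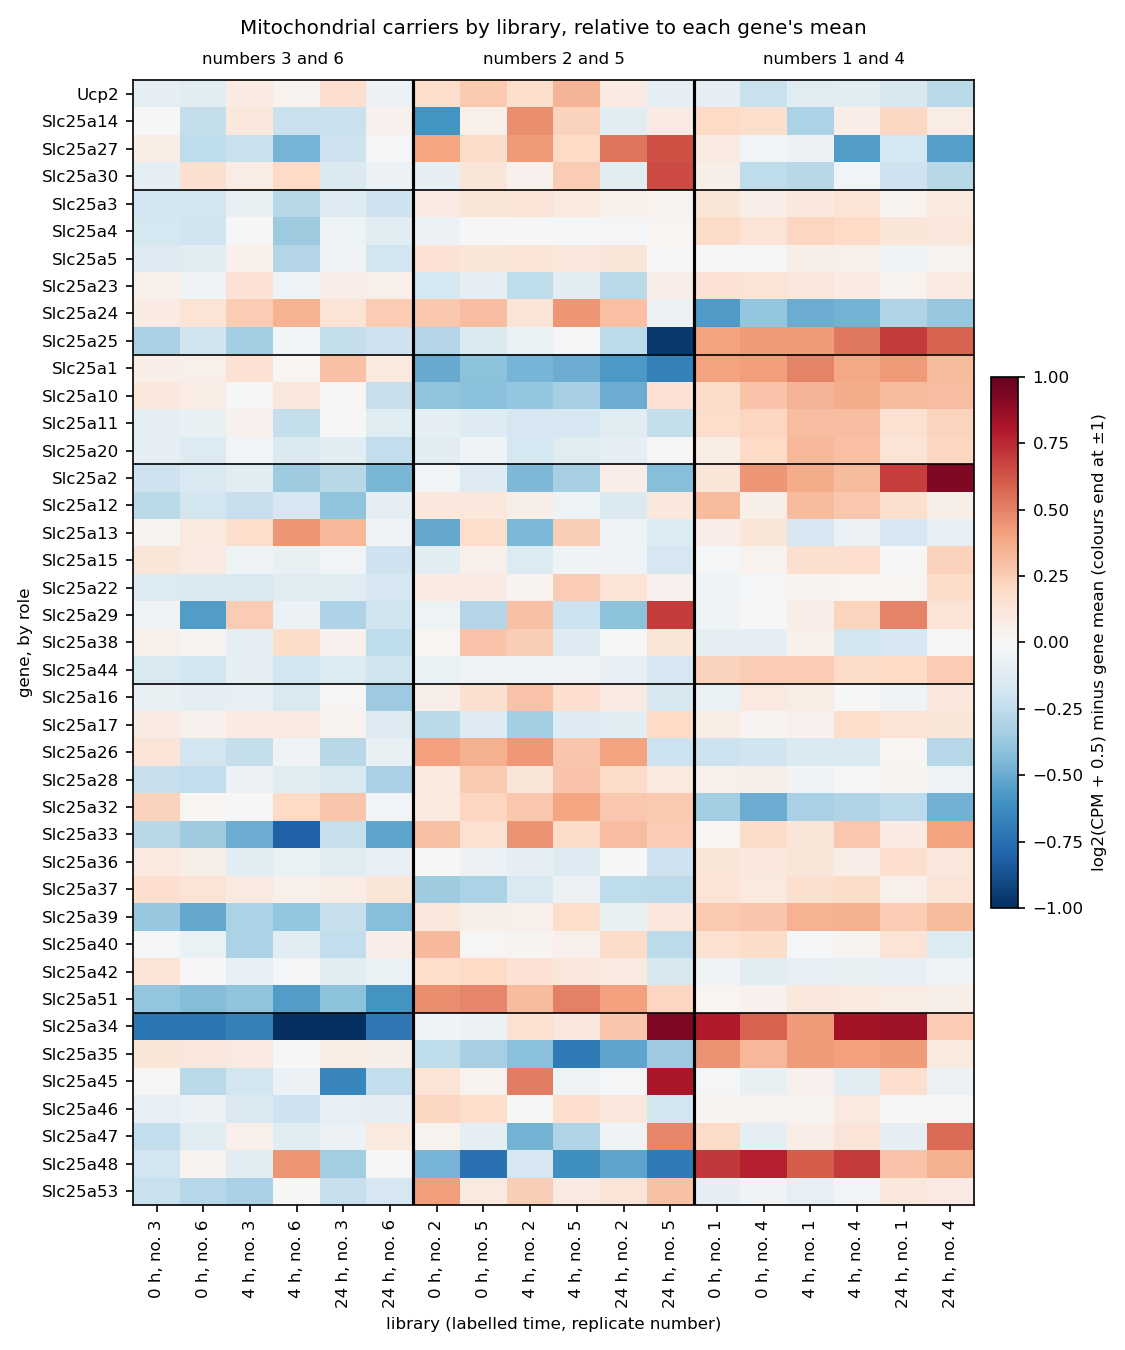
Level of 41 of the 42 kept carriers in every library as log2(CPM + 0.5) minus the mean of the gene, with libraries ordered by number set and labelled time and genes by role. Blocks of colour follow the number sets; Slc25a1 is lowest in every library of set 2+5 and highest in every library of set 1+4.

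The carboxylate and acylcarnitine carriers were the group with the most even direction. These proteins move citrate, malate, oxoglutarate, succinate and fatty acylcarnitines, which link the tricarboxylic acid cycle to fat synthesis and fat oxidation. All 4 that were measured were lower in set 2+5 than in set 1+4, and all 4 were lower in set 3+6 than in set 1+4, each time without overlap. Of all genes, 29.9% and 29.5% were lower, and 35.3% and 38.6% did not overlap in either direction. With library totals all 4 kept the sign, with 3 and 0 called lower, and 4 and 4 once 24 h replicate 5 was left out. All genes called lower then numbered 2440 and 1132, and 3623 and 2453. In set 3+6 against set 2+5, 2 were higher and 2 were not called, where 28.6% of all genes were higher.

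Slc25a1 exports citrate, the source of cytosolic acetyl-CoA for fatty acid synthesis. It had 60.8 to 73.8 CPM in set 3+6 (median 63.7), 37.5 to 45.2 in set 2+5 (median 42.3) and 74.8 to 85.1 in set 1+4 (median 80.0). The 3 sets did not overlap, with set 2+5 the lowest. Set 2+5 differed from set 1+4 by -0.92 ± 0.05 (SE) on the log2 scale (edgeR adjusted p = 1.83e-15), and set 3+6 from set 1+4 by -0.29 ± 0.04 (adjusted p = 2.07e-06). The difference of set 3+6 from set 2+5 was 0.63 ± 0.05 (adjusted p = 9.99e-12).

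Slc25a10, the dicarboxylate carrier, exchanges malate and succinate for phosphate. It had 40.0 to 51.0 CPM in set 3+6 (median 48.6), 33.3 to 52.0 in set 2+5 (median 35.8) and 53.7 to 61.0 in set 1+4 (median 58.6). Set 1+4 was highest throughout; in set 2+5 the library 24 h replicate 5 alone had 52.0 CPM and the other 5 had 33.3 to 37.4. On the log2 scale the difference was -0.67 ± 0.07 in set 2+5 against set 1+4, -0.29 ± 0.06 in set 3+6 against set 1+4, and 0.38 ± 0.07 in set 3+6 against set 2+5. An annotated antisense gene overlaps its exons, and whether the authors counted by strand is not given in the sources used here.

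Slc25a11 and Slc25a20 had close levels in sets 3+6 and 2+5. Slc25a11, which exchanges oxoglutarate for malate, had 65.1 to 79.1 CPM in set 3+6 (median 72.5), 65.0 to 71.8 in set 2+5 (median 69.1) and 85.2 to 95.0 in set 1+4 (median 89.3). Its difference was log2 -0.37 ± 0.04 in set 2+5 and -0.30 ± 0.04 in set 3+6, each against set 1+4. Slc25a20, which brings acylcarnitines into the matrix for oxidation, had 30.6 to 35.8 CPM in set 3+6 (median 33.5), 32.2 to 36.8 in set 2+5 (median 34.0) and 38.4 to 46.0 in set 1+4 (median 42.1). Slc25a20 gave log2 fold changes of -0.31 ± 0.05 in set 2+5 (edgeR adjusted p = 2.05e-06) and -0.33 ± 0.04 in set 3+6 (adjusted p = 2.63e-07), each against set 1+4. Between sets 3+6 and 2+5 neither was called, with log2 differences of 0.07 ± 0.04 for Slc25a11 and -0.03 ± 0.05 for Slc25a20.

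The ratio of Slc25a1 RNA to Slc25a20 RNA per kilobase was 4.37 ± 0.33 in set 3+6, 2.74 ± 0.26 in set 2+5 and 4.24 ± 0.29 in set 1+4 (SD, n = 6 each). Its range in set 2+5, 2.28 to 3.02, lay below that of set 3+6, 4.12 to 4.88, and that of set 1+4, 3.91 to 4.63.

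Among the carriers of adenine nucleotides and phosphate, the sharpest contrast was between a pair of related genes. Slc25a23, Slc25a24 and Slc25a25 encode calcium-regulated carriers that exchange ATP-Mg for phosphate and so set the adenine nucleotide content of the matrix. Slc25a24 was higher and Slc25a25 lower in both set 3+6 and set 2+5 than in set 1+4.

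Slc25a24 had 34.1 to 41.0 CPM in set 3+6 (median 36.9), 30.8 to 43.7 in set 2+5 (median 39.3) and 21.6 to 26.1 in set 1+4 (median 23.8). Slc25a25 had 18.8 to 23.4 CPM in set 3+6 (median 20.4), 11.9 to 23.6 in set 2+5 (median 20.7) and 31.6 to 39.0 in set 1+4 (median 33.4). For both genes set 1+4 stood clear of the other sets, which overlapped each other. The log2 fold change of Slc25a24 was 0.72 ± 0.06 in set 2+5 (edgeR adjusted p = 6.72e-11) and 0.64 ± 0.06 in set 3+6 (adjusted p = 3.49e-10), each against set 1+4. That of Slc25a25 was -0.71 ± 0.08 (adjusted p = 6.31e-08) and -0.75 ± 0.07 (adjusted p = 1.11e-08) in the same order. Exons of Slc25a25 overlap Naif1 on the other strand. Per kilobase the ratio of Slc25a24 to Slc25a25 was 4.18 ± 0.28 in set 3+6, 4.52 ± 0.79 in set 2+5 and 1.59 ± 0.08 in set 1+4 (SD, n = 6 each). Slc25a23, the third of the family, was lower in set 2+5 than in set 1+4 by a log2 difference of -0.26 ± 0.05 and was not called in set 3+6 against set 1+4.

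**Figure D3:**
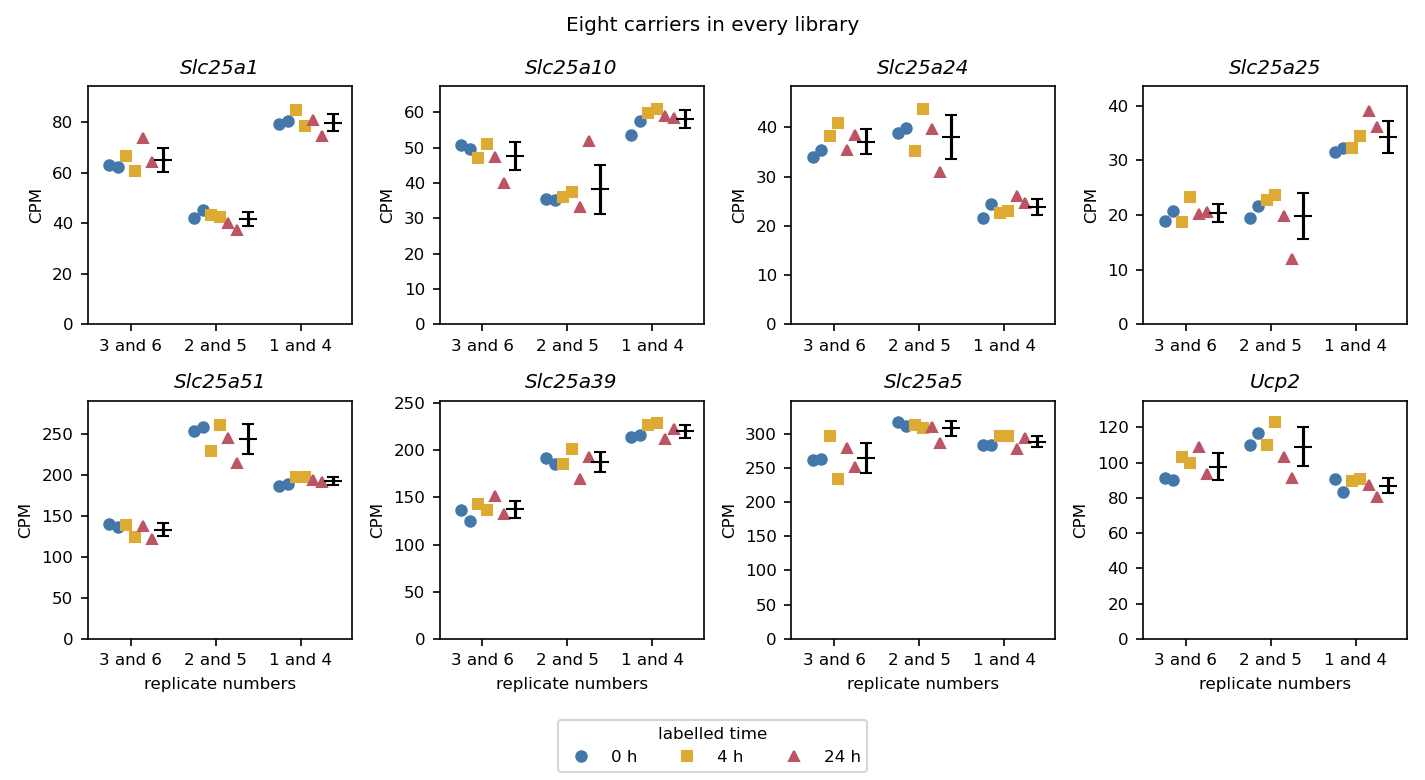
CPM of 8 carriers in every library by number set (x axis), with colour and shape for labelled time and a bar for mean ± SD (n = 6). Slc25a24 is lowest and Slc25a25 highest in set 1+4, and symbols of the 3 labelled times lie among each other within each set.

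The promoters of the 2 carboxylate carriers and the 2 ATP-Mg carriers that lay furthest apart between sets are shown because these genes carry the main contrasts. The sequences are from RefSeq on GRCm38.p6, run 5′ to 3′ on the strand of the gene from 250 bases before to 50 after its start, and capitals mark matches to 4 of the motifs named after them. They lie at chr16:17928170-17928469 (minus strand) for Slc25a1, chr11:120491587-120491886 (plus) for Slc25a10, chr3:109122899-109123198 (plus) for Slc25a24 and chr2:32451421-32451720 (minus) for Slc25a25.
Slc25a1: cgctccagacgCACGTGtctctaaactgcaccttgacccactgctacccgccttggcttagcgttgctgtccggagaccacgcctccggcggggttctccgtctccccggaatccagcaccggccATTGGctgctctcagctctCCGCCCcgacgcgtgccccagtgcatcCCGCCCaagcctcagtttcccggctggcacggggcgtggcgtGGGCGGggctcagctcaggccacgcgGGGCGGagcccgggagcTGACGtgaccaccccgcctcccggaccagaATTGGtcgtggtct
Slc25a10: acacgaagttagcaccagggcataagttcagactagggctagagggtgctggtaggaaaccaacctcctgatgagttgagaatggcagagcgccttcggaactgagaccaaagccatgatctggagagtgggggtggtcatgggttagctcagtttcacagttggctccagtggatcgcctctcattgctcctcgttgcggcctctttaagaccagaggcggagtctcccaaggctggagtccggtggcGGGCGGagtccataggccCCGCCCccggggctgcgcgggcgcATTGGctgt
Slc25a24: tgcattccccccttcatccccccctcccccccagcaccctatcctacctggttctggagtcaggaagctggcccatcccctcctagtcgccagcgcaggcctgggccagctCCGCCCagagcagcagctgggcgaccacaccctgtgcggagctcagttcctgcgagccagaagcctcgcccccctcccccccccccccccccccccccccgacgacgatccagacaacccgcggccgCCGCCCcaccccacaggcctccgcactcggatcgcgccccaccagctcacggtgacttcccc
Slc25a25: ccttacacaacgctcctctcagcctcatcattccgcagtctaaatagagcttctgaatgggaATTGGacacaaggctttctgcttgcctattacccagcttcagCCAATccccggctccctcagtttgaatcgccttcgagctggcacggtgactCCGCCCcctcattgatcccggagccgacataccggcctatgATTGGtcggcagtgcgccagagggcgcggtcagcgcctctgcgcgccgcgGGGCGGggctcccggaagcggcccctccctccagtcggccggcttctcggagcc

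Short motifs were searched on both strands: the E-box CACGTG, the cAMP response half-site TGACG, the CCAAT box CCAAT, the GC box GGGCGG and the extended nuclear receptor half-site AAGGTCA. The Slc25a1 promoter held 1 E-box, 1 TGACG, 2 CCAAT boxes and 4 GC boxes. The Slc25a10 promoter held 1 CCAAT box and 2 GC boxes, that of Slc25a24 2 GC boxes, and that of Slc25a25 3 CCAAT boxes and 2 GC boxes. Of the 42 carriers 32 had a promoter in the table. GC boxes were in 29 of them (90.6%), against 35.7% of all 32851 promoters of that length. CCAAT was in 16 (50%, against 37.4%), TGACG in 11 (34.4%, against 20.8%), CACGTG in 5 (15.6%, against 7.15%) and AAGGTCA in 1 (3.12%, against 4.72%). These are letter matches in a window, and binding was not measured. The 32851 promoters hold every listed start of every gene, expressed here or not. Each carrier entered with 1 start and had passed the count filter, so the shares compare unlike sets. Shares among expressed genes alone were not computed.

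The abundant translocases and the phosphate carrier gave smaller log2 differences than these ATP-Mg carriers. Slc25a4, the form typical of heart and muscle, had 149 to 190 CPM in set 3+6 (median 173), 183 to 193 in set 2+5 (median 189) and 206 to 222 in set 1+4 (median 213). Set 1+4 lay above the other sets. Its log2 fold change was -0.18 ± 0.04 in set 2+5 and -0.31 ± 0.04 in set 3+6 (edgeR adjusted p = 6.22e-07), each against set 1+4. The difference of set 3+6 from set 2+5 was -0.13 ± 0.04, or 0.15 with library totals.

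Slc25a5, the form of most dividing and secretory cells, had 234 to 297 CPM in set 3+6 (median 262), 287 to 317 in set 2+5 (median 311) and 278 to 297 in set 1+4 (median 288). Sets 3+6 and 1+4 overlapped. Slc25a5 differed by -0.13 ± 0.04 on the log2 scale in set 3+6 against set 1+4 (edgeR adjusted p = 0.015) and 0.04 with library totals. This call rests on 4 h replicate 6, without which the difference was -0.08 and not called. Against set 2+5, set 3+6 differed by -0.22 ± 0.04, or 0.05 with library totals.

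The phosphate carrier Slc25a3 had 310 to 357 CPM in set 3+6 (median 330), 385 to 410 in set 2+5 (median 400.5) and 386 to 413 in set 1+4 (median 403). Set 3+6 lay below the others, which covered the same range. Slc25a3 differed by -0.27 ± 0.04 on the log2 scale in set 3+6 against set 1+4 (edgeR adjusted p = 1.98e-07). Against set 2+5, set 3+6 differed by -0.26 ± 0.04, or 0.01 with library totals. The ratio of Slc25a4 to Slc25a5 per kilobase was 0.46 ± 0.02 in set 3+6, 0.43 ± 0.02 in set 2+5 and 0.52 ± 0.01 in set 1+4 (SD, n = 6 each).

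In the uncoupling group, Ucp2 was the only abundant member. Of its 4 genes, 2 were called higher in set 2+5 than in set 1+4, where 29.6% of all genes were higher. Ucp2 had 90.3 to 109 CPM in set 3+6 (median 96.6), 91.2 to 123 in set 2+5 (median 110) and 80.4 to 90.8 in set 1+4 (median 88.4). Its range in set 2+5 lay just above that in set 1+4, and set 3+6 overlapped both. Ucp2 gave log2 fold changes of 0.34 ± 0.05 in set 2+5 (edgeR adjusted p = 4.29e-06) and 0.17 ± 0.05 in set 3+6 (adjusted p = 0.0062), each against set 1+4. For set 3+6 against set 2+5 it was -0.17 ± 0.05, or 0.10 with library totals. Its exons overlap Dnajb13 on the other strand.

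Slc25a27, also called UCP4 and known from brain, had 2.82 to 4.34 CPM in set 3+6 (median 3.45), 4.71 to 6.63 in set 2+5 (median 5.59) and 2.61 to 4.38 in set 1+4 (median 3.72). Set 2+5 lay above the others, which overlapped. Slc25a27 gave log2 fold changes of 0.59 ± 0.12 in set 2+5 against set 1+4 (edgeR adjusted p = 0.00016) and -0.59 ± 0.12 in set 3+6 against set 2+5 (adjusted p = 0.00018). Slc25a14 and Slc25a30, also called UCP5 and KMCP1, averaged 2.3 to 3.9 CPM in the sets and were not called in any comparison.

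Of the 8 amino acid carriers kept, 3 were lower in set 2+5 and 4 lower in set 3+6, each against set 1+4, and none was higher. Of all genes, 29.9% and 29.5% were lower. With library totals and without 24 h replicate 5, 2 of the 8 were higher and 3 lower in each. All genes then gave 4803 higher and 3623 lower, and 6970 and 2453. Slc25a44, which brings branched-chain amino acids into mitochondria and is known for its role in brown fat thermogenesis, had 104 to 113 CPM in set 3+6 (median 107), 106 to 117 in set 2+5 (median 115) and 137 to 143 in set 1+4 (median 141). Set 1+4 lay far above the others, which overlapped. Slc25a44 gave log2 fold changes of -0.30 ± 0.03 in set 2+5 (edgeR adjusted p = 5.68e-09) and -0.38 ± 0.03 in set 3+6 (adjusted p = 2.28e-11), each against set 1+4. For set 3+6 against set 2+5 it was -0.09 ± 0.03, a call lost without a filter on low counts, and 0.18 with library totals.

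The aspartate-glutamate carriers Slc25a12 and Slc25a13 serve the malate-aspartate shuttle. Slc25a12 was lower by -0.44 ± 0.06 on the log2 scale in set 3+6 than in set 1+4 (edgeR adjusted p = 3.40e-07), with 13.6 to 16.9 CPM in set 3+6, 16.4 to 19.6 in set 2+5 and 18.9 to 22.8 in set 1+4. Slc25a13 had 2.52 to 3.70 CPM in set 3+6 (median 2.91), 1.67 to 3.17 in set 2+5 (median 2.40) and 2.25 to 2.86 in set 1+4 (median 2.45). The sets overlapped, and no comparison of Slc25a13 was called; its log2 differences ran from -0.04 ± 0.16 to 0.28 ± 0.15. Slc25a2, an ornithine carrier, had 0.96 to 1.37 CPM in set 3+6 (median 1.20), 0.97 to 1.60 in set 2+5 (median 1.22) and 1.69 to 3.31 in set 1+4 (median 2.16). It did not overlap between set 1+4 and the others, with log2 fold changes of -0.79 ± 0.18 in set 2+5 and -0.94 ± 0.17 in set 3+6. Slc25a15, the main ornithine carrier of liver, Slc25a29, a basic amino acid carrier, and Slc25a38, a glycine carrier needed for haem synthesis, were not called in any comparison of sets. The glutamate carrier Slc25a22 was lower in set 3+6 than in set 1+4, with a log2 difference of -0.17 ± 0.04.

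The 13 carriers of cofactors, nucleotides and metals went several ways. In set 2+5 against set 1+4, 5 were higher and 5 lower, and in set 3+6 against set 1+4, 1 was higher and 8 lower. Of all genes, 29.6% and 30.2% were higher and 29.9% and 29.5% lower in this order. With library totals and without 24 h replicate 5, the second comparison gave 3 higher and 3 lower, where all genes gave 6970 and 2453. Slc25a51 imports NAD into the matrix. It had 122 to 140 CPM in set 3+6 (median 137), 214 to 261 in set 2+5 (median 250) and 187 to 198 in set 1+4 (median 193). All 3 sets were apart, in the order 3+6, 1+4 and 2+5. Slc25a51 gave log2 fold changes of 0.34 ± 0.04 in set 2+5 against set 1+4 (edgeR adjusted p = 1.20e-07), -0.53 ± 0.04 in set 3+6 against set 1+4 (adjusted p = 3.03e-11) and -0.87 ± 0.04 in set 3+6 against set 2+5 (adjusted p = 1.55e-15).

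Slc25a39, a glutathione importer, was also apart in all 3 sets, in another order. It had 125 to 152 CPM in set 3+6 (median 136), 169 to 201 in set 2+5 (median 189) and 212 to 229 in set 1+4 (median 219). Its log2 fold change was -0.23 ± 0.04 in set 2+5 (edgeR adjusted p = 2.81e-05) and -0.68 ± 0.04 in set 3+6 (adjusted p = 8.85e-14), each against set 1+4, and -0.44 ± 0.04 in set 3+6 against set 2+5. Its less abundant relative Slc25a40 was called lower in set 3+6 than in set 1+4 with a log2 difference of -0.19 ± 0.07. That call was lost without 4 h replicate 3, 24 h replicate 1 or 24 h replicate 3, where the difference was -0.15 to -0.16. Slc25a40 was also lower in set 3+6 than in set 2+5, by -0.22 ± 0.07, but gave 0.05 with library totals. Numbers 1 to 3 alone gave Slc25a40 -0.38 in this comparison and -0.29 against set 1+4, both called, and numbers 4 to 6 alone -0.01 and -0.08, neither called.

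Slc25a32, a carrier linked to folate and FAD, was higher in both set 3+6 and set 2+5 than in set 1+4. It had 14 to 17.4 CPM in set 3+6 (median 15.5), 15.3 to 19.0 in set 2+5 (median 17.3) and 9.99 to 11.8 in set 1+4 (median 11.3). Set 1+4 lay below the others, with log2 fold changes of 0.63 ± 0.07 in set 2+5 (edgeR adjusted p = 9.15e-09) and 0.49 ± 0.07 in set 3+6 (adjusted p = 3.19e-07). Slc25a26, the S-adenosylmethionine carrier that supplies methyl groups to the matrix, had 4.10 to 5.62 CPM in set 3+6 (median 4.61), 4.31 to 7.06 in set 2+5 (median 6.76) and 4.09 to 5.18 in set 1+4 (median 4.44). Its log2 fold change was 0.54 ± 0.10 in set 2+5 against set 1+4 (edgeR adjusted p = 2.76e-05) and -0.50 ± 0.10 in set 3+6 against set 2+5 (adjusted p = 7.41e-05). The overlap of these sets came from 24 h replicate 5 alone, at 4.31 CPM, and exons of Slc25a26 overlap Lrig1 on the other strand.

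Slc25a33 and Slc25a36 import pyrimidine nucleotides for mitochondrial DNA and RNA synthesis. Slc25a33 had 8.66 to 13.1 CPM in set 3+6 (median 11.4), 17.3 to 21.4 in set 2+5 (median 18.8) and 15.7 to 20.6 in set 1+4 (median 17.3). Set 3+6 lay below the others, by -0.60 ± 0.08 on the log2 scale against set 1+4 (edgeR adjusted p = 2.08e-07) and by -0.71 ± 0.08 against set 2+5 (adjusted p = 2.72e-08). Slc25a36 gave log2 differences of -0.18 ± 0.04 in set 2+5 and -0.15 ± 0.04 in set 3+6 (0.01 with library totals), each against set 1+4. Per kilobase their ratio was 0.91 ± 0.13 in set 3+6, 1.57 ± 0.14 in set 2+5 and 1.29 ± 0.15 in set 1+4 (SD, n = 6 each).

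The mitoferrins Slc25a28 and Slc25a37 bring iron into mitochondria for haem and iron-sulfur clusters. Slc25a28 was higher in set 2+5 than in set 1+4 by 0.18 ± 0.05 on the log2 scale and lower in set 3+6 by -0.21 ± 0.05. Slc25a37 was lower in set 2+5 than in set 1+4 by -0.37 ± 0.05, and its log2 difference in set 3+6 was -0.01 ± 0.04. Their ratio per kilobase was accordingly highest in set 2+5, at 1.86 ± 0.14, against 1.13 ± 0.11 in set 3+6 and 1.28 ± 0.07 in set 1+4 (SD, n = 6 each).

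Slc25a42, which brings coenzyme A into the matrix, had 75.5 to 89.7 CPM in set 3+6 (median 79.2), 72.9 to 93.8 in set 2+5 (median 89.5) and 76.1 to 79.8 in set 1+4 (median 77.5). The sets overlapped. For Slc25a42 the log2 fold change was 0.18 ± 0.04 in set 2+5 against set 1+4 (edgeR adjusted p = 0.00021) and -0.14 ± 0.04 in set 3+6 against set 2+5, where library totals gave 0.13. Slc25a17, a peroxisomal carrier of cofactors, was lower in set 2+5 than in set 1+4 by -0.26 ± 0.06. Slc25a16 gave -0.14 ± 0.05 in set 3+6 against set 1+4 (0.01 with library totals), a call lost without any 1 of 6 libraries (0 h replicate 4, 4 h replicates 1, 3 and 6, 24 h replicates 4 and 6), where it was -0.09 to -0.14.

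The carriers whose substrates are less settled held the widest folds, at low counts. Slc25a34 had 0.15 to 0.43 CPM in set 3+6 (median 0.40), 0.92 to 2.32 in set 2+5 (median 1.12) and 1.27 to 2.16 in set 1+4 (median 1.89). Set 3+6 lay below the others, which overlapped; in set 2+5 the library 24 h replicate 5 had 2.32 CPM and the other 5 had 0.92 to 1.29. Log2 fold changes of Slc25a34 were -2.43 ± 0.24 in set 3+6 against set 1+4 (edgeR adjusted p = 1.42e-09), -1.73 ± 0.27 in set 3+6 against set 2+5 (adjusted p = 3.91e-06) and -0.70 ± 0.21 in set 2+5 against set 1+4 (adjusted p = 0.0059). The gene rested in set 3+6 on 2 to 10 counts per library.

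Slc25a48, which has been linked to choline import, had 1.42 to 2.82 CPM in set 3+6 (median 1.84), 0.96 to 1.68 in set 2+5 (median 1.15) and 2.48 to 3.68 in set 1+4 (median 3.35). Sets 2+5 and 1+4 did not overlap, and set 3+6 overlapped both. The log2 fold change was -1.41 ± 0.16 in set 2+5 against set 1+4 (edgeR adjusted p = 1.92e-08), -0.76 ± 0.14 in set 3+6 against set 1+4 and 0.66 ± 0.17 in set 3+6 against set 2+5. This last difference of Slc25a48 was 0.23 and not called with numbers 1 to 3 alone (edgeR adjusted p = 0.41), and 1.17 and called with numbers 4 to 6 alone (adjusted p = 0.0019). Slc25a35 had 9.92 to 10.8 CPM in set 3+6 (median 10.6), 5.91 to 8.29 in set 2+5 (median 7.47) and 10.7 to 13.8 in set 1+4 (median 13.5). Set 2+5 lay below the others, by -0.85 ± 0.07 on the log2 scale against set 1+4 (edgeR adjusted p = 8.77e-11). Set 3+6 differed from set 2+5 by 0.55 ± 0.07 and from set 1+4 by -0.31 ± 0.07, and exons of Slc25a35 overlap Rangrf on the other strand.

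Slc25a46, an outer membrane protein of mitochondrial fusion, gave a log2 difference of -0.14 ± 0.04 in set 3+6 against set 1+4, or 0.02 with library totals. Slc25a53 was higher in set 2+5 than in set 1+4 by 0.23 ± 0.08, a call lost without 0 h replicate 2, where it was 0.17. It was lower in set 3+6 than in set 1+4 by -0.22 ± 0.08, lost without 0 h replicate 6, 4 h replicate 3 or 24 h replicate 1, where it was -0.19 to -0.20. Slc25a45 was called in 1 comparison, at -0.45 ± 0.14 in set 3+6 against set 2+5. By its GENCODE boundary Slc25a47 starts 162 bases from Slc25a29 on the opposite strand, while its RefSeq start lies 15083 bases away from the GENCODE one, and neither gene was called between sets.

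**Figure D4:**
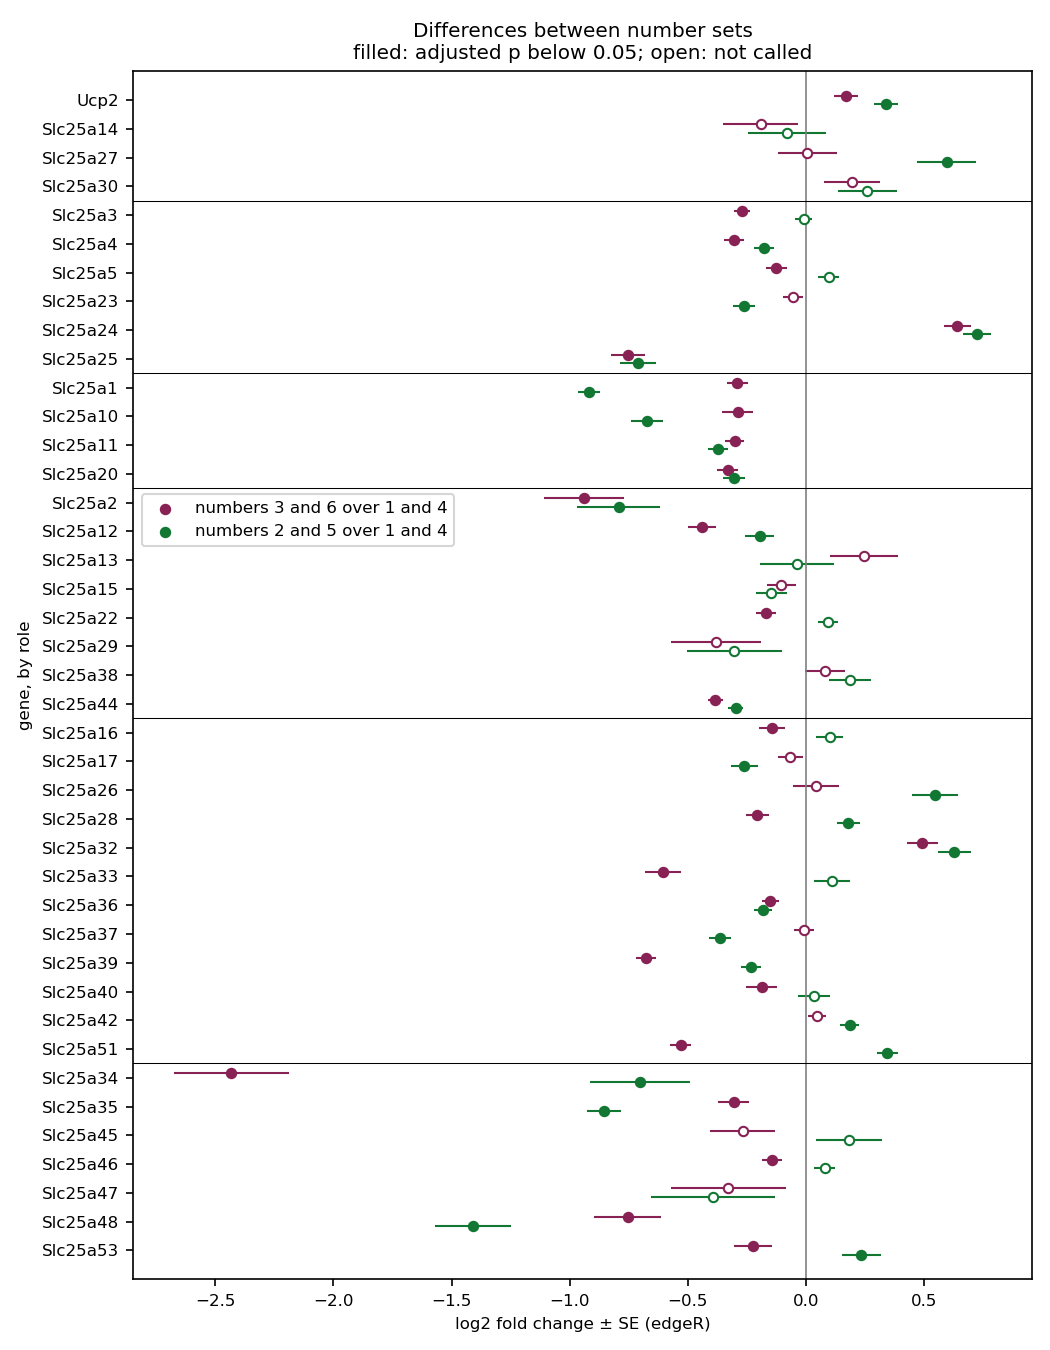
Log2 fold change ± SE of 41 of the 42 carriers in set 3+6 and in set 2+5, each against set 1+4, by role; filled symbols passed an edgeR adjusted p of 0.05. Slc25a24 and Slc25a32 lie right of 0 in both comparisons and the 4 carboxylate and acylcarnitine carriers left of it; in set 3+6, Slc25a5, Slc25a16, Slc25a36 and Slc25a46 among the called genes change sign with library totals, as do Slc25a15, Slc25a17, Slc25a23 and Slc25a37 among those not called.

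By their calls the carriers fell into 11 patterns over the 3 comparisons. The largest, with 7 genes each, were those not called anywhere (Slc25a13, Slc25a14, Slc25a15, Slc25a29, Slc25a30, Slc25a38 and Slc25a47) and those lower in set 3+6 than in both other sets but not called between these. This second pattern held Slc25a3, Slc25a5, Slc25a16, Slc25a22, Slc25a33, Slc25a40 and Slc25a46, of which all but Slc25a33 changed sign with library totals in at least 1 of the 2 comparisons. With 24 h replicate 5 left out too, only Slc25a5, Slc25a16 and Slc25a46 of these changed sign, in set 3+6 against set 1+4. Slc25a1, Slc25a10, Slc25a35 and Slc25a48 were lowest in set 2+5 and were called lower in set 3+6 than in set 1+4. Slc25a2, Slc25a11, Slc25a20, Slc25a25 and Slc25a36 were lower in sets 3+6 and 2+5 than in set 1+4 and not called between them, and Slc25a36 changed sign in set 3+6 against set 1+4 with library totals.

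The machinery that imports carriers into the inner membrane gave smaller differences with TMM scaling. Of 15 genes tested, 2 were higher and 5 lower in set 2+5 than in set 1+4, 2 and 1 in set 3+6 than in set 1+4, and 4 and 0 in set 3+6 than in set 2+5. Over all genes 29.6%, 30.2% and 28.6% were higher and 29.9%, 29.5% and 28.5% lower. With library totals and without 24 h replicate 5 the counts of these 15 genes were 2 and 3, 9 and 0, and 9 and 0. All genes then gave 4803 and 3623, 6970 and 2453, and 5871 and 2592, and the median gene moved by log2 0.04, 0.16 and 0.11. With TMM the median absolute log2 difference of the 15 was 0.09, 0.05 and 0.12, against 0.26, 0.26 and 0.22 for the carriers and 0.24, 0.24 and 0.23 for all genes. Tomm70a, the outer membrane receptor for carrier precursors, was higher by 0.21 ± 0.04 in set 2+5 and by 0.32 ± 0.04 in set 3+6, each against set 1+4. Timm22, the channel of the inner membrane insertase, was lower by -0.29 ± 0.05 in set 2+5 than in set 1+4 and higher by 0.22 ± 0.05 in set 3+6 than in set 2+5.

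Other transporters of the mitochondrial membranes were called at 6 higher and 11 lower of 21 in set 2+5 against set 1+4, 3 and 15 in set 3+6 against set 1+4, and 4 and 10 in set 3+6 against set 2+5. Of all genes, 29.6% were higher and 29.9% lower in the first comparison, 30.2% and 29.5% in the second and 28.6% and 28.5% in the third. With library totals and without 24 h replicate 5 the counts of these 21 were 6 and 8, 5 and 12, and 6 and 10. All genes then gave 4803 and 3623, 6970 and 2453, and 5871 and 2592. Slc8b1, the mitochondrial sodium-calcium exchanger, averaged 37.5 ± 3.42 CPM in set 3+6, 93.0 ± 6.08 in set 2+5 and 25.04 ± 2.33 in set 1+4 (SD, n = 6 each). Its log2 fold change was 1.92 ± 0.06 in set 2+5 against set 1+4, above that of any carrier. Mpc1, a subunit of the pyruvate carrier, averaged 33.7 ± 4.31 CPM in set 3+6, 61.6 ± 3.10 in set 2+5 and 64.1 ± 3.46 in set 1+4 (SD, n = 6 each). It was lower by -0.91 ± 0.06 in set 3+6 than in set 1+4, and its log2 difference was -0.07 ± 0.06 in set 2+5 against set 1+4. The calcium-proton exchange gene Letm1 was lower in set 3+6 than in set 1+4, by -0.81 ± 0.04, and Sfxn4, a sideroflexin, was lower in set 2+5 than in set 1+4, by -0.91 ± 0.12. Sfxn3, a serine transporter, was higher by 0.32 ± 0.05 in set 2+5 and 0.69 ± 0.05 in set 3+6, each against set 1+4.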

How the data were processed

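RNA of 18 libraries was analysed from the deposited table of expected counts, estimated by salmon per the labels. Per the submitters' processing notes, edgeR, limma and the mm10 build were used, with no versions. Which salmon version, annotation and strand setting the authors used is not given in the sources used here; per the labels' protocols the kit selects strand, depletes ribosomal RNA, used 250 ng of RNA and gave 52-base read pairs. Of the values above 0, 27.4% were not whole, and counts were rounded. Salmon shares reads between like transcripts; the pseudogene Slc25a5-ps had 0 to 2 counts. Exons of 11 carriers overlap a gene on the opposite strand and of 2 a microRNA gene on the same strand (GENCODE M21, mm10), which leaves their values less certain. Besides those flagged above, the 11 include Slc25a11, Slc25a23, Slc25a33, Slc25a37 and Slc25a46. The 2 with a microRNA gene are Slc25a47 and Slc25a51.

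Genes passing filterByExpr of edgeR (14788, all 42 carriers among them) were scaled by TMM, giving CPM, and tested with the robust quasi-likelihood F-test on the 18 libraries together, with Benjamini-Hochberg adjustment at 0.05 over all genes. Labelled times were tested with time alone, and number sets with set and time in the model. Whether libraries are separate cultures is not in the labels; p-values then measure the spread between the libraries alone, and this may be technical. Levels per kilobase used all annotated exon bases. The tests were also run on simulated counts. These held no spread between number sets or replicate numbers, so they cannot check the tests on libraries with such spread.

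One of the 42 carriers enters the counts and sums but is not reported here on its own. The carriers, lists, sets and markers were chosen with earlier results of these data known. Any other kept carrier may be named; full values go to 11 anchor genes and the 4 largest rises and falls called per comparison of sets, and of the other 2 lists to the 2 largest. Deviations from the time means correlated at 0.297 to 0.718 in every same-numbered pair (18 pairs, median 0.59). For numbers 3 apart the range was 0.237 to 0.688 and the median 0.569, and for others the median was -0.27. The numbers, taken from the titles, thus group the libraries by set. Pairing by the single number is hardly told apart from this. Alternatives were DESeq2, no TMM, no filter, the replicate block, numbers 1 to 3 or 4 to 6 alone and each library left out; no TMM without 24 h replicate 5, and counts of carriers, were added after the data were seen. Versions were R 4.3.3, edgeR 4.0.16, DESeq2 1.42.0, limma 3.58.1, Python 3.11.15, numpy 2.4.6, pandas 2.3.3 and matplotlib 3.10.9.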

Additional observations from a re-analysis of the deposited data

Results flagged for a closer look

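Of 132 groups of 6 libraries over 22 named carriers, 11 held 1 library far from the other 5. The cut-off passes about 1 in 20 groups of 6 independent draws from 1 normal distribution. That rate does not apply here, since the groups share libraries and those of a labelled time mix the number sets. In 7 of the 11 the library was 24 h replicate 5, within set 2+5. There Slc25a10 (52.05 CPM, others 33.3 to 37.4) and Slc25a34 (2.321, others 0.92 to 1.29) were high. Slc25a25 was low in that library (11.93, others 19.4 to 23.6), as were Slc25a26 (4.31, others 6.28 to 7.06) and Slc25a42 (72.93, others 86.9 to 93.8). Slc25a44 (106.4, others 112.9 to 116.5) and Slc25a5 (287.1, others 308.2 to 316.7) were low in it as well. This is the library with 41.5% of its counts in Yam1 and Gm26917, and the part of that share in these values was not tested.

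Elsewhere Slc25a10 was low in 24 h replicate 6 within set 3+6, at 40.01 CPM against 47.2 to 51.0 in the others. Slc25a13 was low in 0 h replicate 2 among the 0 h libraries, at 1.667 CPM against 2.65 to 3.00, and high in 24 h replicate 3 among the 24 h libraries, at 3.393 against 2.25 to 2.52. Slc25a5 was low in 4 h replicate 6 among the 4 h libraries, at 233.5 CPM against 296.4 to 312.8.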

How the results depend on the processing

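Between labelled times 0 carriers were called under any alternative. Counts of genes called were 0 to 1 with a library left out (1 without 4 h replicate 3, at 4 h against 0 h and at 24 h against 4 h). With the replicate number as a block, 1 gene was called at 24 h against 0 h, not a carrier, and the block changed no other call.

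Between sets, the same carrier counts came from DESeq2 and, but for 19 lower in place of 20 in set 3+6 against set 2+5, without a filter. With a library left out, carriers called higher were 9 to 12, 3 to 3 and 8 to 9, carriers lower 18 to 19, 22 to 26 and 20 to 21, and genes 8312 to 8952, 8446 to 8972 and 7852 to 8557 (set 2+5 against 1+4, set 3+6 against 1+4, set 3+6 against 2+5). Without 24 h replicate 5, 12 were higher in set 2+5 than in set 1+4. Numbers 4 to 6 alone gave 4 higher in set 3+6 than in set 2+5.

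Library totals without TMM gave 3788, 4536 and 5130 genes in the same order. Carriers higher were then 4 (first comparison), and carriers lower 10, 6 and 3. Without 24 h replicate 5 as well, carriers higher were 14 in the first and 8 in the second comparison, and carriers lower 15 in the second and 13 in the third. Genes called were then 8426, 9423 and 8463 in the same order. Signs turned with totals in set 3+6 against set 1+4 for Slc25a16 (0.0088, and 0.0095 without 24 h replicate 5), Slc25a36 (0.0083 and 0.0057), Slc25a46 (0.0189 and 0.0124) and Slc25a5 (0.0367 and 0.0343). In set 3+6 against set 2+5 they turned for Slc25a12 (0.011), Slc25a16 (0.0193), Slc25a22 (0.004), Slc25a3 (0.0109), Slc25a4 (0.147), Slc25a40 (0.0532), Slc25a42 (0.130), Slc25a44 (0.182, and 0.0175 without 24 h replicate 5), Slc25a46 (0.0483), Slc25a5 (0.0453) and Ucp2 (0.101). The median gene moved in these scalings by up to 0.25. Over all alternatives, single carriers kept sign and call in 2051 values, lost the call with the same sign in 89 and turned in 20. The fewest counts over all libraries lay behind Slc25a47 (196), Slc25a34 (381), Slc25a2 (561) and Slc25a29 (562).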
